A study of Mus musculus with 2 samples.

Results

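The genes described here were 9 genes of the cytotoxic program, chosen by name out of the 27998 genes of the count tables: the granzymes Gzma, Gzmb, Gzmc and Gzmk, perforin (Prf1), the granule membrane protein Nkg7, Fas ligand (Fasl) and the serpins Serpinb9 and Serpinb6b. The study dissociated ear skin of ICR mice aged 7 to 8 weeks with collagenase D and DNase1 and sequenced single cells by a droplet method that counts the 3′ ends of mRNAs with unique molecular identifiers (UMIs). The conditions were healthy control ear skin (CTRL) and ear skin with allergic contact dermatitis (ACD), raised with the hapten DNFB. For ACD the back skin was painted with 1.0% DNFB, the ear was challenged with 0.2% DNFB 6 days later, and ear skin was taken 60 hours after the challenge. Each condition was 1 library, the number of mice in a library was not given in the sources used here, and the condition cannot be told apart from the library. No p-value could therefore be given, and every interval below covers counting error only.

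Cytotoxic lymphocytes store granzymes, a family of serine proteases, in lysosome-like granules together with perforin, which opens the membrane of the target cell so that granzymes can enter. Granzyme B cleaves caspases and other death substrates after aspartate, granzyme A and granzyme K are tryptases, and granzyme C lies beside granzyme B in a cluster of related genes. Fas ligand kills through the death receptor Fas without granules, and Serpinb9 is the intracellular inhibitor that protects a cell from granzyme B. In contact dermatitis, hapten-specific CD8+ T cells are held to be the main killers of keratinocytes, while NK cells, γδ T cells and regulatory T cells (Tregs) are also found in the inflamed skin.

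In the GENCODE M21 annotation of GRCm38, all 9 were protein-coding genes found by their identifiers. Gzma (chr13:113093825-113100981, minus strand) and Gzmk (chr13:113171608-113225908, minus strand) lay 70.6 kb apart. Gzmb (chr14:56258838-56262260, minus strand) and Gzmc (chr14:56231441-56234656, minus strand) lay 24.2 kb apart. Serpinb9 (chr13:33003250-33017957, plus strand) and Serpinb6b (chr13:32965209-32979067, plus strand) also lay 24.2 kb apart, on another stretch of chromosome 13. Prf1 (chr10:61297833-61304680, plus strand), Nkg7 (chr7:43437073-43438249, plus strand) and Fasl (chr1:161780689-161788495, minus strand) had no other member near them. Granzyme genes are alike in sequence, but none of the 351 stretches of 50 bases in the last 400 bases of the longest coding transcript of any member occurred in a transcript of another gene, so reads of 3′ ends could be assigned to each gene.

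Gzma, Gzmb, Gzmc and Prf1 are the granule genes whose levels by gate are compared most closely below, so the 250 bases before their RefSeq start (GRCm38.p6, read along the gene's strand) are shown, with capitals for the RUNX core TGTGGT or its reverse ACCACA and for the AP-1 site TGANTCA. These are Gzma at chr13:113100982-113101231, Gzmb at chr14:56262335-56262584, Gzmc at chr14:56234658-56234907 (all minus strand) and Prf1 at chr10:61297586-61297835 (plus strand).
Gzma: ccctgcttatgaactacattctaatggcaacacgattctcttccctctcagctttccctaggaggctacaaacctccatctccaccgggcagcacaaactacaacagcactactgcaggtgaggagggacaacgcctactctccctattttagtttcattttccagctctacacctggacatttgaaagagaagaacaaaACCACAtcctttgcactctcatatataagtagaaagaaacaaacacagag
Gzmb: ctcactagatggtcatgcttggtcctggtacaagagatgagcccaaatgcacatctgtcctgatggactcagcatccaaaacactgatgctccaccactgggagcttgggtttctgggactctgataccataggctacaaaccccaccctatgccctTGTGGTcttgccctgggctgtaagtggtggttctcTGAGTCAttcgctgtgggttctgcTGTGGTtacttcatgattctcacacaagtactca
Gzmc: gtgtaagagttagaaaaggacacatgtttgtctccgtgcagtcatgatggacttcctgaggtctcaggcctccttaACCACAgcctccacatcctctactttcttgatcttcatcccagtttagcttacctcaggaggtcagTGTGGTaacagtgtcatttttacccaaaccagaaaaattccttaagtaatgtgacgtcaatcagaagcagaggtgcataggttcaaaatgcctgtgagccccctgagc
Prf1: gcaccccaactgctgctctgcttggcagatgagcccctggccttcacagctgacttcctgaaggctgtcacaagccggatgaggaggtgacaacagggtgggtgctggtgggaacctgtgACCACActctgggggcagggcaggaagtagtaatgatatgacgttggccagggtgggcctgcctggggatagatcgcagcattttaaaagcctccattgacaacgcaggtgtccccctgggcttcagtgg
Gzmb and Gzmc each held the RUNX core at 2 places, and Gzma and Prf1 each held it at 1. Of the members not shown, Nkg7 held it at 1 place, 83 bases before the start. The windows of Gzmk, Fasl, Serpinb9 and Serpinb6b did not hold it. Of all 32851 windows of the same 250 bases, 14.05% held this core on either strand. The AP-1 site was found in the Gzmb window only, 58 bases before the start, and in 6.75% of all windows. The T-box core GGTGTG or its reverse CACACC, held by 16.3% of all windows, was in none of the 4 windows shown. It was found once each in the windows of Gzmk, Nkg7, Fasl, Serpinb9 and Serpinb6b. A match is a run of letters and was not tested as a binding site.

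Cells were assigned by raw UMIs of marker genes, with none of the 9 members among them. Of 12895 CTRL and 13163 ACD barcodes, 12213 and 11665 passed the filter on cells, with medians of 6850 and 7447 UMIs. The CD8 gate held 10 CTRL and 625 ACD cells, the CD4 gate 42 and 655, the Treg gate (Foxp3) 20 and 348, the gate of Cd163l1-positive T cells 171 and 407, the gate of epidermal T cells (Avil) 100 and 99, and the NK gate (no Cd3, with NK receptors) 10 and 449. Markers that did not define the gates went with the names of 3 of them: Cd7 reached a level of 2753 UMIs per 1000000 in ACD epidermal T cells against 61.3 to 220 in the other 5 gates, Il2ra was highest in Tregs at 294 and Tyrobp in NK cells at 1554. T cell receptor genes were not used here. The gates held 353 CTRL and 2583 ACD cells. The libraries shared 50 barcodes, of which 47 passed the filter, 13 lay in the gates and 8 had the same class in both libraries. Median depth in the gates was 3264 to 4956 UMIs in CTRL and 4280 to 7542 in ACD, so a share of cells with a UMI was taken after thinning each cell to 2000 UMIs, which left out 1 to 5 CTRL and 3 to 16 ACD cells per gate. Only 10 CTRL cells each were in the CD8 and NK gates, so these control values can rest on 1 cell.

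Chondrocytes, cartilage cells that are not cytotoxic, served as the background for free RNA. This class was defined by 0 UMIs of Cd3 and Ncr1, which leaves out barcodes with free lymphocyte RNA of these genes. The background can therefore be too low. In 1481 ACD chondrocytes (median 9799 UMIs), Gzma was at 2.31 UMIs per 1000000, Gzmb at 1.86, Prf1 at 0.193 and Nkg7 at 4.24, and after thinning 0.609%, 0.609%, 0.0676% and 1.01% of them had a UMI. Gzmc was at 0.707 and Gzmk at 0.193, Fasl had no UMI (up to 0.193 allowed), and Serpinb6b was at 0.835. Serpinb9 was at 5.01 in ACD and at 5.67 in 2432 CTRL chondrocytes, which had no UMI of Gzma, Gzmb, Gzmk or Fasl.

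**Figure D1:**
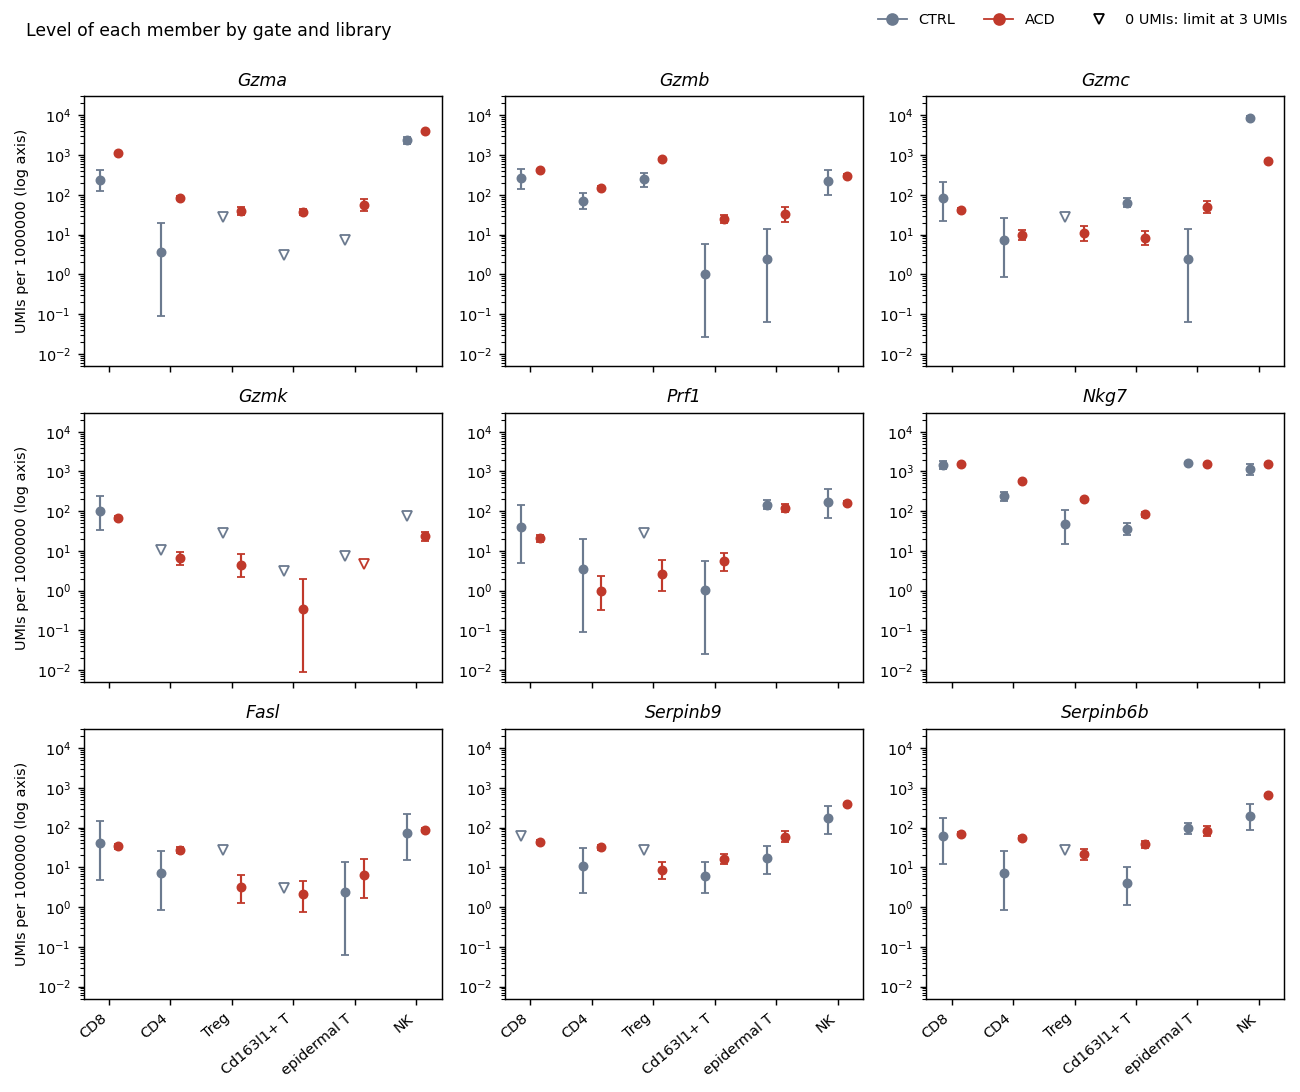
Level of each of the 9 genes, as UMIs per 1000000 UMIs of a gate on a log axis, in the 6 gates for the CTRL (gray) and ACD (red) libraries, 1 library each. Points are levels with exact Poisson 95% intervals, and open triangles stand for 0 UMIs and lie at the level of 3 UMIs. Gzma was highest in ACD NK cells, Gzmb in ACD Tregs, Prf1 in NK and epidermal T cells and Gzmk in CD8 cells.

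Gzma, the gene of the tryptase granzyme A, was foremost a gene of NK cells and, at a lower level, of CD8 cells. In the NK gate it was at 2395 UMIs per 1000000 in CTRL (95% interval 1942 to 2921; 97 UMIs) and at 3932 in ACD (3854 to 4011; 9690 UMIs). In the CD8 gate it was at 243 in CTRL (125 to 424) and at 1123 in ACD (1095 to 1151). All 12 CTRL UMIs of the CD8 gate were in 1 of 10 cells, so the 4.63-fold higher level of ACD CD8 cells (log2 ratio 2.21, 1.40 to 3.16) sets 625 cells against that cell. The NK ratio was 1.64-fold (log2 0.72, 0.43 to 1.02), but 58.8% of the CTRL NK UMIs were in 1 cell. Without the top cells the log2 ratio was 1.84. After thinning, 88.5% of ACD NK cells (85.1 to 91.3) and 28.7% of ACD CD8 cells (25.1 to 32.4) had a Gzma UMI, and unthinned shares were 90.6% and 38.1%. Within the ACD CD8 gate, 19 of 625 cells held 50% of all Gzma UMIs, against 91 of 449 in the NK gate.

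In the other ACD gates Gzma was lower: 83.0 in CD4 cells (75.2 to 91.4), 55.1 in epidermal T cells (38.3 to 76.6), 39.2 in Tregs (31.4 to 48.4) and 36.8 in Cd163l1-positive T cells (30.2 to 44.6). Each of these intervals overlapped that of its neighbor in this order. All 35 UMIs of the epidermal T gate and 70.1% of the 87 UMIs of the Treg gate were in 1 cell each, and without it the Treg gate had 26 UMIs, a level of 11.7, below the CTRL limit of 28.1. The corresponding CTRL gates had 1 Gzma UMI in CD4 cells and none in the other 3. The CD4 ratio was therefore given with its interval, 23.2-fold or 4.54 on the log2 scale (2.05 to 9.85), and the Cd163l1-positive T cells were at least 12-fold higher than a floor of 3 CTRL UMIs. That fold rests on few cells: 5 of 407 ACD cells held 90% of the 106 UMIs, and 5 of 404 thinned cells had a Gzma UMI.

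Gzmb, the gene of granzyme B, was spread over more lymphocytes, and its highest level among the 6 gates was in Tregs, the Foxp3+ cells that restrain other T cells. ACD Tregs were at 807 UMIs per 1000000 (770.5 to 846), ACD CD8 cells at 429 (412 to 446), NK cells at 303 (282 to 326) and CD4 cells at 151 (140.2 to 162). Epidermal T cells (33.0, 20.4 to 50.5) and Cd163l1-positive T cells (25.0, 19.6 to 31.5) were last, and theirs were the only neighboring intervals that overlapped. After thinning, 46.3% of ACD Tregs (40.9 to 51.8), 32.6% of NK cells (28.2 to 37.2), 29.1% of CD8 cells (25.6 to 32.9) and 11.1% of CD4 cells (8.77 to 13.8) had a Gzmb UMI, with unthinned shares of 60.9%, 47.0%, 46.9% and 17.3%. The ACD Treg UMIs were in 212 cells, and the cell with most held 3.96% of them.

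Control Tregs also held Gzmb, at 244 UMIs per 1000000 (159 to 357) with 26 UMIs in 8 of 20 cells. ACD Tregs were 3.31-fold higher (log2 ratio 1.73, 1.17 to 2.35), and the log2 ratio was 2.74 without the cell with most Gzmb UMIs in each library, which held 57.7% of the CTRL UMIs. In CD8 cells Gzmb was at 263 in CTRL (140 to 449), and the ratio of 1.63-fold had an interval that took in 0 on the log2 scale (0.71, -0.07 to 1.62). Without the top cell of each library the log2 ratio was 1.94, with 5 CTRL UMIs left. In NK cells it was at 222 in CTRL (102 to 422), with a log2 ratio of 0.45 (-0.48 to 1.58), or 2.41 without the top cells, with 2 CTRL UMIs left. CTRL CD4 cells were at 71.4 (43.6 to 110), with 85.0% of the UMIs in 1 cell, against 151 in ACD (log2 ratio 1.08, 0.44 to 1.80, and 3.57 without the top cells).

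Gzmk, the gene of the tryptase granzyme K, was closest to a CD8 gene. It was at 101 in CTRL (32.8 to 236; 5 UMIs) and 66.9 in ACD CD8 cells (60.4 to 74.0), a ratio whose interval took in 0 (log2 -0.60, -1.83 to 1.04). ACD NK cells followed at 23.5 (17.9 to 30.4), CD4 cells at 6.61 (4.55 to 9.29) and Tregs at 4.51 (2.16 to 8.29), and the latter pair overlapped. Cd163l1-positive T cells had 1 UMI and epidermal T cells none. The CD8 gate held 62.9% of all 606 Gzmk UMIs of the ACD library and all 5 of the CTRL library.

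Gzmc, the neighbor of Gzmb on chromosome 14, was carried by very few cells at very high counts. In the ACD library 6033 UMIs were found in 280 cells, and 6 cells held 50% of them, whereas 125 cells were needed for Gzmb and 135 for Gzma. In the CTRL library 2 cells held 50% of 720 UMIs. NK cells had the highest level, 8517 in CTRL (7642 to 9465) and 706 in ACD (674 to 740), but 68.1% of the 345 CTRL UMIs were in 1 of 10 cells and 90% of the 1741 ACD UMIs were in 4 of 449. Only 3.23% of ACD NK cells (1.78 to 5.36) had a Gzmc UMI after thinning, against 4 of 8 CTRL NK cells. In Cd163l1-positive T cells all 62 CTRL UMIs were in 1 cell, and 91.7% of the 24 ACD UMIs were in 1 other cell. The lower ACD levels of these gates (log2 ratios -3.59 and -2.93) therefore compare single cells, and Poisson intervals do not cover that.

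**Figure D2:**
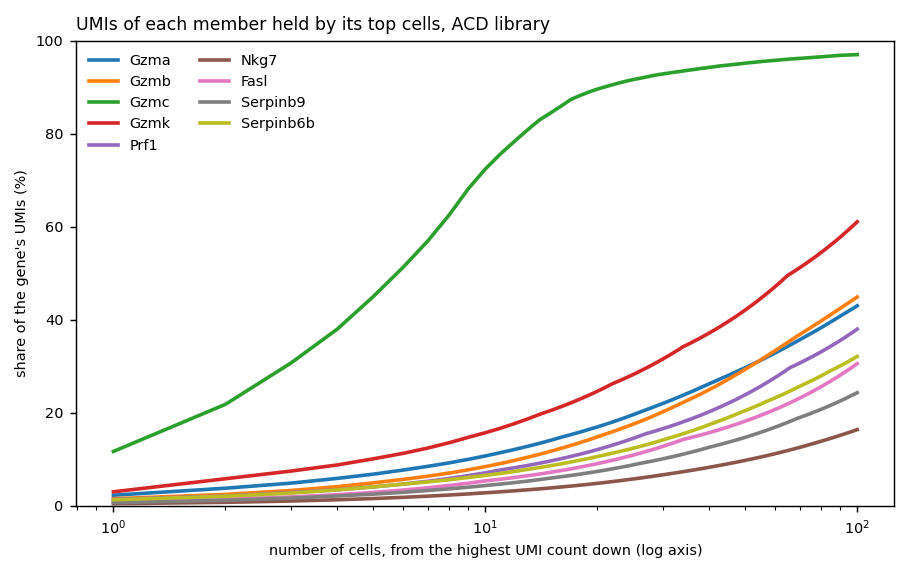
Share of the UMIs of each gene (y axis, percent) held by its top cells, counted from the cell with most UMIs down (x axis, log scale), over all kept cells of the ACD library. The curve of Gzmc lies far above those of the other 8 genes, with 72.4% of its UMIs in 10 cells against 10.7% for Gzma.

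A look at the cells behind the Gzmc counts, with a threshold chosen after the values were seen, found 24 ACD and 5 CTRL cells with 20 or more Gzmc UMIs, which held 91.3% and 85.3% of the UMIs of their library. Of the 24, all had a UMI of Nkg7, 15 had no Cd3 UMI, 15 had a UMI of an NK marker and 9 of Prf1, but 1 had a UMI of Gzma. They fell into the NK gate (5 cells), other gates or T cells (7), an endothelial barcode (1) and barcodes in no gate (11).

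Prf1, the gene of the pore-forming protein, followed neither Gzma nor Gzmb. It was at 173 in CTRL (69.5 to 356) and 161 in ACD NK cells (145 to 177), and at 147 in CTRL (112 to 189) and 123 in ACD epidermal T cells (97.0 to 153). These 4 intervals overlapped. ACD CD8 cells were lower, at 20.7 (17.2 to 24.8), and CTRL CD8 cells had 2 UMIs, a level of 40.4 (4.90 to 146). ACD Cd163l1-positive T cells were at 5.56 (3.18 to 9.03), Tregs at 2.70 (0.992 to 5.88) and CD4 cells at 1.002 (0.325 to 2.34), each overlapping the next. In thinned ACD cells 30.9% of NK cells (26.6 to 35.5), 22.9% of epidermal T cells (14.9 to 32.6) and 6.76% of CD8 cells (4.92 to 9.03) had a UMI, with 51.4%, 47.5% and 15.4% unthinned.

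Epidermal T cells, the dendritic γδ T cells of mouse epidermis, held perforin mRNA with little granzyme mRNA. Of their 96 thinned CTRL cells, 35.4% had a Prf1 UMI (25.9 to 45.8), 1 had a Gzmb UMI and none had a Gzma or Gzmk UMI, which allows a share of up to 3.12%. They held 60% of the Prf1 UMIs of the CTRL library (49.7 to 69.7) and 9.49% of those of the ACD library (7.57 to 11.7). In ACD their Gzmb was at 33.0 and their Gzmc at 50.3 (34.4 to 71.1), in 14 and 11 of 99 cells, against 1 UMI of each in CTRL. Those ratios were 13.5-fold (log2 3.75, 1.12 to 9.12) and 20.6-fold (4.36, 1.78 to 9.71). Without the top cells the log2 ratios were 1.47 and 2.43 against the floor of 3 UMIs, since 0 CTRL UMIs were left. The ACD epidermal T gate also held Mki67 at 107 UMIs per 1000000 against 7.35 in CTRL. The basophil marker Mcpt8 was at 37.8 there against 0 in CTRL. The part of these 2 differences in the ratios was not tested.

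Tregs were the opposite case, with much granzyme B mRNA and little perforin mRNA. Of 339 thinned ACD Tregs, 157 had a Gzmb UMI and 0 had a Prf1 UMI. At 2000 UMIs per cell this limits the share of cells with a UMI to 0.885% and does not bound the share that express Prf1, since without thinning 5 of 348 Tregs held 6 Prf1 UMIs. Among thinned ACD CD8 cells 42 of 621 had one.

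Nkg7, which is needed for full granule release, was at a like level in CD8, epidermal T and NK cells. CD8 cells were at 1496 in CTRL (1175 to 1878) and 1504 in ACD (1472 to 1536), epidermal T cells at 1640 (1519 to 1769) and 1530 (1436 to 1630), and NK cells at 1136 (831 to 1515) and 1553 (1504 to 1603). The other 3 gates were lower in level and higher in ACD than in CTRL, at 236 and 576 in CD4 cells, 46.9 and 198 in Tregs and 35.8 and 83.7 in Cd163l1-positive T cells. Their log2 ratios were 1.29 (0.94 to 1.66), 2.08 (0.85 to 3.71) and 1.23 (0.71 to 1.78). After thinning, 93.8% of epidermal T cells, 91.2% of NK cells and 85.0% of CD8 cells of the ACD library had a Nkg7 UMI, against 49.2% of CD4 cells, 18.6% of Tregs and 8.42% of Cd163l1-positive T cells.

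**Figure D3:**
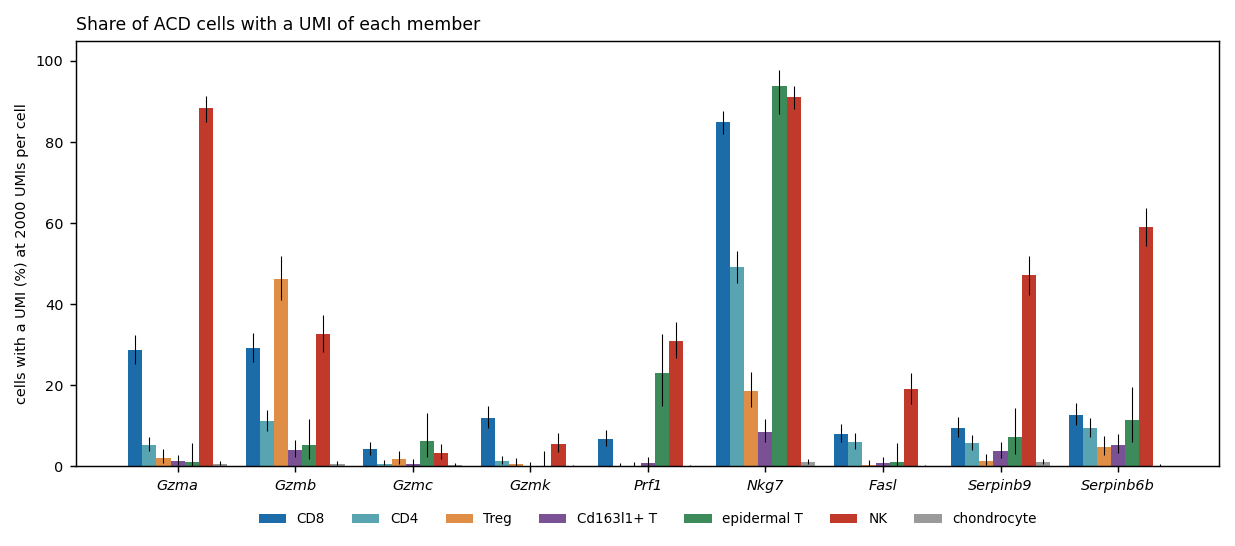
Share of ACD cells with at least 1 UMI of each gene after thinning to 2000 UMIs per cell (y axis, percent), for the 6 gates and for chondrocytes as background. Bars are shares of cells of 1 library with exact binomial 95% intervals. Gzma stood out in NK cells (88.5%), Gzmb in Tregs (46.3%) and Nkg7 in CD8, epidermal T and NK cells.

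Fasl, the granule-independent death ligand, was highest in NK cells, at 74.1 in CTRL (15.3 to 216; 3 UMIs) and 87.2 in ACD (76.0 to 99.7). ACD CD8 cells were at 34.1 (29.4 to 39.2) and CD4 cells at 26.9 (22.5 to 31.8), with overlapping intervals. CD4 cells were at 7.14 in CTRL with 2 UMIs, a ratio of 3.76-fold (log2 1.91, 0.03 to 4.97). Tregs, epidermal T cells and Cd163l1-positive T cells held 7, 4 and 6 Fasl UMIs in ACD and 0, 1 and 0 in CTRL.

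Among the 6 ACD gates, both inhibitors were highest in NK cells. Serpinb9 was at 173 in CTRL (69.5 to 356) and 382 in ACD NK cells (358 to 407), a ratio of 2.21-fold (log2 1.15, 0.10 to 2.46). Serpinb6b, a serpin of the same cluster, was at 198 (85.3 to 389) and 679 (647 to 713), or 3.44-fold higher in ACD (1.78, 0.80 to 2.996), but all 8 CTRL UMIs were in 1 cell. In ACD CD8 cells they were at 44.1 (38.8 to 49.9) and 68.5 (61.9 to 75.6). ACD Tregs, with the highest Gzmb, had the lowest Serpinb9 of the 6 gates, 8.56 (5.15 to 13.4), which overlapped that of Cd163l1-positive T cells (16.7, 12.3 to 22.1). In CD4 cells Serpinb6b was at 7.14 in CTRL (2 UMIs) and 55.1 in ACD (48.8 to 62.0), and in Cd163l1-positive T cells at 4.09 (1.12 to 10.5) and 37.9 (31.1 to 45.7). Neither serpin was a lymphocyte gene alone: dendritic or Langerhans cells held Serpinb9 at 97.0 in CTRL (13 cells) and 138 in ACD (42 cells), and Serpinb6b at 226 and 186.

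Each gate was also counted as a whole. A gene counted as higher in ACD if its level, with 10 UMIs per 1000000 added on both sides, was at least 2-fold higher, among genes with at least 50 UMIs in the gate. In CD8 cells all 9 members passed the filter and 2 were higher (Gzma and Serpinb9), next to 24.5% of all 7568 genes, and none was lower, next to 10.6%, so the share of higher members is near the background. The Serpinb9 call has no fold, because 0 CTRL UMIs allow up to 60.6, above the ACD level of 44.1. In NK cells 3 of 9 were higher (Gzmk, Serpinb9, Serpinb6b), next to 20.9% of 5317 genes, and Gzmc was lower, next to 8.43%. The Gzmk call has no fold either, since 0 CTRL UMIs allow up to 74.1 against 23.5 in ACD.

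In the CD4, Cd163l1-positive T and Treg gates, most of the members that passed were higher, next to smaller shares of all genes. In the epidermal T gate none of the 3 that passed was. In CD4 cells 5 of 7 were higher (Gzma, Nkg7, Fasl, Serpinb9, Serpinb6b), where 2.99% of 7488 genes were higher and 3.29% lower. The CD4 calls of Gzma, Fasl, Serpinb9 and Serpinb6b rest on 1, 2, 3 and 2 CTRL UMIs. The CD4 log2 ratio of Serpinb9 was 1.58 (0.01 to 3.88). In Cd163l1-positive T cells 4 of 6 were higher (Gzma, Gzmb, Nkg7, Serpinb6b), where 1.54% of 6958 genes were. In that gate Gzmc was lower, as were 2.83% of all genes, and the call of Gzma rests on 0 CTRL UMIs and on 5 ACD cells with 90% of the UMIs. In Tregs 3 of 3 were higher (Gzma, Gzmb, Nkg7), where 8.00% of 5312 genes were higher and 5.80% lower. The Treg call of Gzma rests on 0 CTRL UMIs and on 1 ACD cell with 70.1% of the UMIs, without which it has no fold. In epidermal T cells 0 of 3 were higher (Prf1, Nkg7, Serpinb6b), where 4.53% of 3092 genes were higher and 1.52% lower. The filter of 50 UMIs left out Gzma, Gzmb, Gzmc and Serpinb9 there, with ACD levels of 55.1, 33.0, 50.3 and 59.8. Their CTRL levels were 0, 2.45, 2.45 and 17.1, and the Serpinb9 log2 ratio was 1.80 (0.62 to 3.21). All 35 of these Gzma UMIs were in 1 cell. Fasl and Gzmk did not pass either, with 4 and 0 ACD UMIs. Because the filter sums both libraries, a member at 0 in CTRL passes only if it is high in ACD, so these counts describe the members that passed and not all 9. Median log2 ratios of the passing members were 1.10 in CD4 cells, 1.87 in Tregs and 1.35 in Cd163l1-positive T cells, with medians of all genes of -0.06, 0 and -0.04.

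The CTRL and ACD cells of a gate need not be the same kind of cell. In the NK gate Eomes, itself one of 8 gate markers, was at 74.1 in CTRL and 288 in ACD, Il2ra at 173 and 8.93, and Xcl1, a chemokine gene of NK cells, at 4567 and 1324. The part of this difference in the members was not tested. Scaling by the median ratio of all genes moved the log2 ratio of every gene up by 0.34 in CD8 cells and by 0.11 in NK cells, and by 0.08 or less in the other gates. None of the 40 log2 ratios of members recomputed with this scaling moved beyond its interval, and no count of higher members moved by over 1.5 times.

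Members were then compared within the same thinned ACD cells, which have equal depth. In CD8 cells Gzmb was found in 50.6% of 178 cells with Gzma (43.0 to 58.1) and in 20.5% of 443 cells without it (16.9 to 24.6). Gzmk likewise was found in 23.0% (17.1 to 29.9) and 7.45% (5.18 to 10.3). Prf1 was found in 10.5% of 181 CD8 cells with Gzmb (6.44 to 15.9) and in 5.23% of 440 without (3.34 to 7.74), with overlapping intervals. In NK cells Prf1 was found in 46.1% of 141 cells with Gzmb (37.7 to 54.7) and in 23.6% of 292 without (18.9 to 28.9). Gzmc went the other way, in 1.04% of 383 NK cells with Gzma (0.285 to 2.65) and 20% of 50 without (10.03 to 33.7). All of Gzma, Gzmb and Prf1 were found in 63 of 433 NK cells, 13 of 621 CD8 cells and in 0 cells of the other 4 gates.

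**Figure D4:**
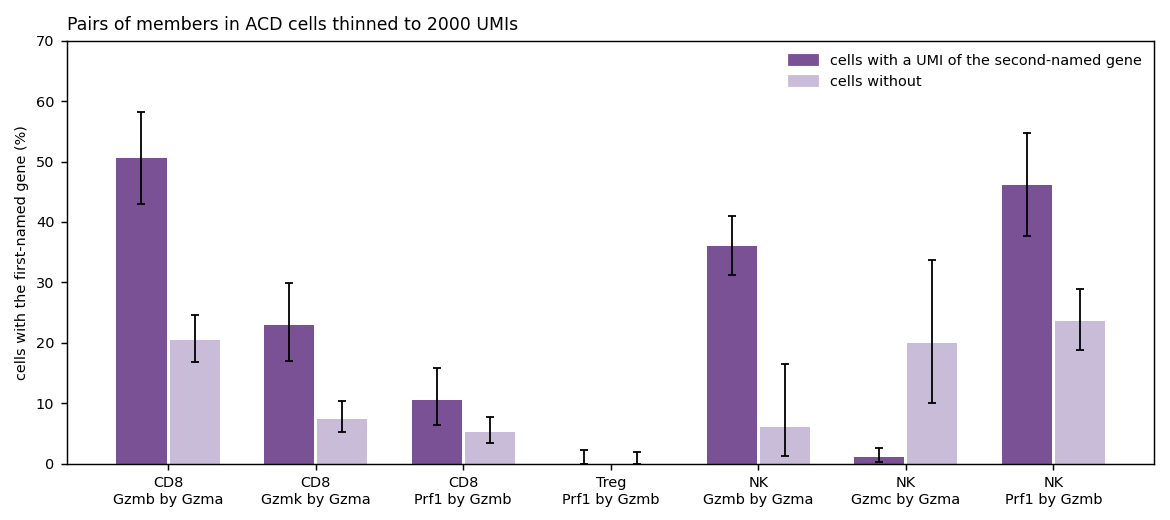
Share of thinned ACD cells with a UMI of the first-named gene (y axis, percent) among cells with (dark) and without (light) a UMI of the second-named gene, in the CD8, Treg and NK gates. Error bars are exact binomial 95% intervals over cells of 1 library. Gzmb was more frequent in CD8 cells with Gzma (50.6% against 20.5%), Gzmc was less frequent in NK cells with Gzma, and no thinned Treg had a Prf1 UMI.

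Serpinb9, the granzyme B inhibitor, was found in 18.8% of CD8 cells with Gzmb (13.4 to 25.3) and in 5.68% of those without (3.71 to 8.27). In Tregs it was found in 1 of 157 cells with Gzmb and in 3 of 182 without.

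Dividing cells differed in these genes, in directions that varied by gene and gate. ACD CD8 cells with 2 or more UMIs of the cell cycle genes Mki67 and Top2a (190 cells, median 13100 UMIs) held Gzmb at 519 (492 to 548), and those with none (361 cells, median 6039 UMIs) at 359 (336 to 383). In Tregs the values were 890.3 (811 to 975) in 61 cells and 698 (650.4 to 747) in 210 cells. In CD4 cells the order was the reverse, with 121 (104 to 139) in 137 cells and 197 (180.0 to 215) in 408 cells. It was also the reverse in NK cells, with Gzmb at 170.3 (130 to 220) in 36 dividing cells and 337 (310.0 to 365) in 348 with none, and Gzma at 3050 (2869 to 3240) and 4129 (4034 to 4226). The intervals of each of these pairs did not overlap, but they cover counting error only. Dividing cells were deeper here too, with medians of 7775 against 4600 UMIs in Tregs and 9957 against 5258 in CD4 cells. In NK cells the medians were 8676.5 and 4018.5. A level is a share of UMIs, so UMIs per cell need not follow the same order. The 36 dividing NK cells held 1057 Gzma UMIs and the 348 with none 7162. CD8 Gzma was at 1081 (1041 to 1123) and 1004 (966 to 1044), with overlapping intervals. Of the other members in dividing CD8 cells and those with none, Gzmc was at 59.7 and 24.3 and Nkg7 at 1596 and 1423. Fasl was at 21.1 and 45.0, Serpinb9 at 31.5 and 54.4, and Serpinb6b at 45.8 and 86.5. The intervals of these pairs did not overlap, while those of Gzmk and of Prf1 did. For Gzmc, 5 of 625 ACD CD8 cells held 50% of the UMIs.

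Over the whole ACD library, 21647 Gzma UMIs fell to NK cells (44.8%), CD8 cells (29.5%), barcodes in no gate (12.9%) and T cells in no gate (8.74%). The 8560 Gzmb UMIs were spread wider, over CD8 cells (28.5%), Tregs (20.9%), T cells in no gate (13.4%), barcodes in no gate (11.2%), CD4 cells (8.79%), NK cells (8.73%) and basophils (4.84%). NK cells also held the largest part of the UMIs of Prf1 (48.2% of 822), Serpinb6b (42.2% of 3968), Serpinb9 (33.6% of 2804) and Fasl (26.6% of 809), and CD8 cells that of Nkg7 (37.5% of 22850). In the CTRL library Serpinb9 was mostly outside lymphocytes, with 32.8% of 592 UMIs in fibroblasts and 20.8% in chondrocytes.

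**Figure D5:**
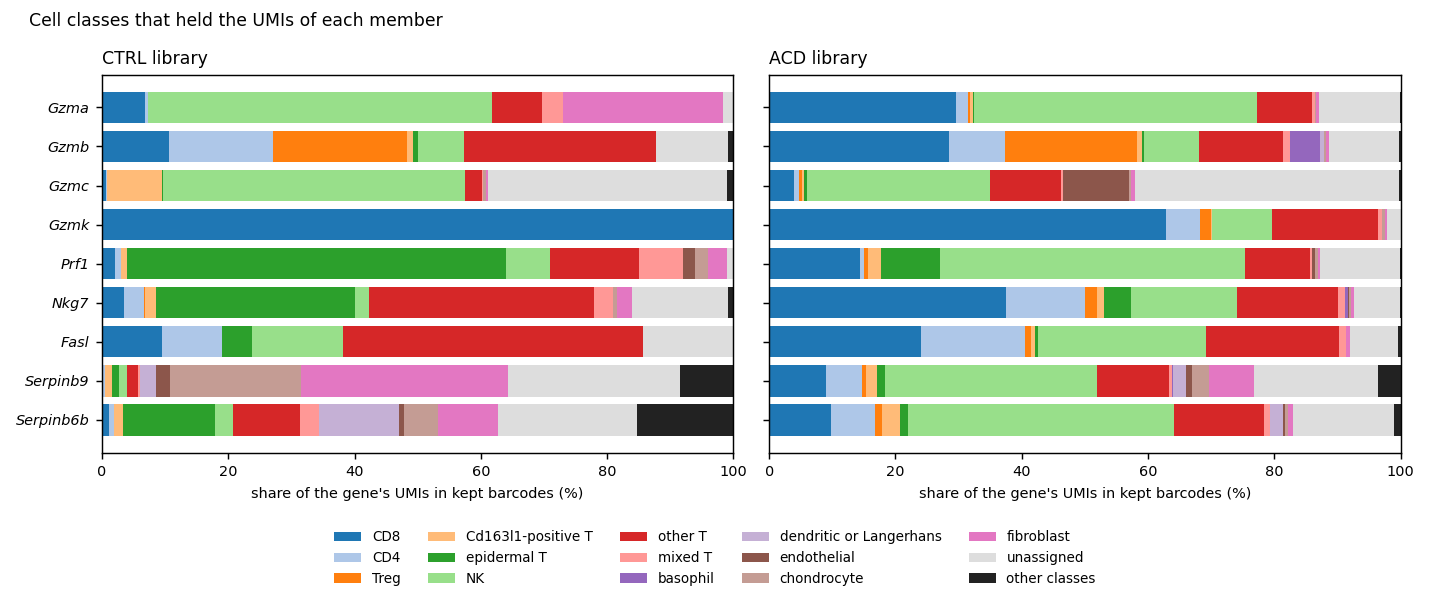
Share of the UMIs of each gene in kept barcodes (x axis, percent) that fell to each cell class (colors), in the CTRL and the ACD library. Each bar sums to 100%. Prf1 was mostly in epidermal T cells in CTRL (60%) and had its largest part in NK cells in ACD (48.2%), and the CTRL bars of Gzmk and Fasl rest on 5 and 21 UMIs.

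Some barcodes outside lymphocytes held granzymes. In CTRL, fibroblast barcodes held 45 of the 178 Gzma UMIs (25.3%), against 97 in NK cells and 12 in CD8 cells. All 178 were in 11 cells of the library. ACD endothelial barcodes had Gzmc at 652 UMIs per 1000000, with 96.4% of it in 1 cell, and all 44 Gzmb UMIs of dendritic or Langerhans cells (99.6 per 1000000) were in 1 cell. In basophils Gzmb was in more cells. The 122 ACD barcodes with basophil markers held Gzmb at 776 UMIs per 1000000 (703 to 854), in 35 cells and with 13.8% of the 414 UMIs in the top cell. Gzma was at 7.49 (2.04 to 19.2) and Prf1 at 0 UMIs. This class was defined by 0 UMIs of Cd3 and Ncr1, so the lack of Cd3 in the 35 cells carries no information. None of them had a Cd4 UMI, and their median depth was 4354 UMIs against 3956 in the other 87. The CTRL library held 1 basophil barcode, with no Gzmb UMI, and no comparison was made.

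Of 44 other genes of the pathway, listed by role, 35 passed the filter in CD8 cells, where 7 were at least 2-fold higher in ACD and 1 lower, next to 24.5% and 10.6% of all genes, so these counts are not above the background. The higher ones were Gnptab, which serves lysosomal enzyme targeting, Unc13d, a priming factor of granule release, Tnfsf10 and Lta, which are death ligands of the tumor necrosis factor family, the transcription factor gene Eomes, and the chemokine genes Ccl3 and Xcl1. Of these only Ccl3 (80.9 in CTRL and 241 in ACD, log2 1.57, 0.21 to 3.45) and Xcl1 (20.2 and 200.4, log2 3.31, 0.83 to 8.61) had an interval above 0, and Gnptab, Unc13d, Tnfsf10 and Eomes had 0 CTRL UMIs and no fold. Prdm1, the gene of the repressor Blimp-1, was at 162 in CTRL (8 UMIs) and 19.8 in ACD (log2 -3.03, -4.05 to -1.78). In the CD4, Treg, Cd163l1-positive T, epidermal T and NK gates, 8 of 35, 4 of 26, 6 of 31, 3 of 20 and 9 of 32 were higher, and 1, 2, 1, 0 and 7 were lower. The shares of all genes in these gates were 2.99%, 8.00%, 1.54%, 4.53% and 20.9% higher and 3.29%, 5.80%, 2.83%, 1.52% and 8.43% lower, and Eomes, among the 9 in NK cells, is a marker of that gate.

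In CD4 and Cd163l1-positive T cells most of these were effector companions, the chemokine, cytokine and receptor genes expressed beside granzymes. Of them, 6 of 9 were higher in CD4 cells (Ccl3, Ccl4, Ccl5, Xcl1, Ifng, Klrd1) and 5 of 7 in Cd163l1-positive T cells (Ccl3, Ccl4, Ccl5, Ifng, Klrk1). Ccl4 was at 3.57 and 152 in CD4 cells and at 4.09 and 175 in Cd163l1-positive T cells. Ccl4 was at 263 and 459 in CD8 cells, and Ccl5 was at 3315 and 2364 in CD8 cells and at 5259 and 5399 in NK cells. Ifng was at 384 and 509.6 in CD8 cells and at 92.8 and 274 in CD4 cells, and Klrd1 at 303 and 358 in CD8 cells.

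Of the genes that load and release granules, 1 of 7 loading genes (Gnptab) and 1 of 6 exocytosis genes (Unc13d) were higher in CD8 cells. None was lower. These counts are not above the 24.5% of all genes that were higher in this gate, and both calls have 0 CTRL UMIs. In CD8 cells the granule proteoglycan gene Srgn was at 1375 and 1398, the protease gene Ctsw at 424.5 and 526, Lamp1 at 142 and 123, and Cst7 at 40.4 and 87.6. Of the exocytosis genes, Vamp8 was at 80.9 and 128, Stx11 at 40.4 and 47.2, Rab27a at 20.2 and 37.2, and Stxbp2 at 40.4 and 30.5. In NK cells Ctsw was at 1185 in CTRL and 557 in ACD (log2 -1.09, -1.51 to -0.64) and Cst7 at 198 and 50.3 (log2 -1.97, -2.996 to -0.73), while Unc13d, Stx11 and Stxbp2 were counted as higher with 0 CTRL UMIs and no fold. Of the death receptors and ligands, Fas was at 101 and 103, Tnf at 142 and 69.7, and Lta at 20.2 and 62.0. Among the other inhibitors Serpinb6a was at 60.6 and 108 and Serpinb1a at 20.2 and 10.01. Apart from the 3 genes named above and Ccl4 and Ccl5, no log2 interval of a listed gene in CD8 cells left out 0. Of the transcription factor genes, Id2 was at 526 and 507, Bhlhe40 at 424.5 and 307, Hopx at 364 and 292 and Runx3 at 202 and 183. The other granzymes Gzmd, Gzme, Gzmf, Gzmg, Gzmm and Gzmn passed the filter in no gate, and their highest counts in the gates were 47 UMIs of Gzmm and 19 of Gzmf, both in ACD CD8 cells.

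The genes most like 3 of the members were found by Pearson correlation of log2(level + 10) over the 12 pairs of gate and library, among 10970 genes. The 12 points share 2 libraries and differ in depth, so r is a description. Gzma was most like Gimap5 (r = 0.946), Ccl5 (0.940), Ccl3 (0.936), Fasl (0.934) and Slamf7 (0.924). Gzmb was most like Cd27 (0.959), Gpr18 (0.901), Sh2d1a (0.897), AW112010 (0.896) and Pglyrp1 (0.867). Prf1 was most like Litaf (0.952), Jak1 (0.940), Efhd2 (0.938), Nr4a2 (0.923) and Bend4 (0.922). Between members, r was 0.58 for Gzma and Gzmb, 0.55 for Gzma and Prf1, -0.06 for Gzmb and Prf1, 0.80 for Prf1 and Nkg7 and 0.86 for Serpinb9 and Serpinb6b.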

How the data were processed

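The deposited files hold raw UMI counts per gene and barcode for 1 CTRL and 1 ACD library. Per the labels and file headers the authors made these counts with Cell Ranger (3.1.0) on mm10, and no normalization was applied. A barcode was kept with over 200 and under 5000 genes detected, if mitochondrial transcripts made up less than 8% of its counts and its total did not exceed 25000 UMIs. T cells had 2 or more UMIs of Cd3d, Cd3e and Cd3g. CD8 cells had 2 or more of Cd8a and Cd8b1, CD4 cells 1 or more of Cd4, and Tregs, Cd163l1-positive and epidermal T cells 1 or more of Foxp3, Cd163l1 or Avil. NK cells had no Cd3 and 2 or more UMIs of NK markers. Barcodes with 1% or more UMIs of other cells' markers were left out of the gates. Doublets were not removed in the main values, and Scrublet (scanpy 1.11.5) called 4.59% of CTRL and 3.36% of ACD cells for an alternative.

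Levels are UMI sums per 1000000 with exact Poisson 95% intervals, ratios have exact conditional binomial intervals, and shares have exact Clopper-Pearson intervals after thinning to 2000 UMIs. A limit for 0 is 3 UMIs or cells. A gene counted as higher or lower at 2-fold with 10 added, given 50 UMIs in the gate. Intervals were tested on simulated Poisson counts, in which UMIs do not gather in few cells, so that test does not cover such spread. Python 3.11.15, numpy 2.4.6 and scipy 1.17.1 were used. All 9 members were named in every gate. Of the pathway list, the 4 genes with the highest level per group and those past 2-fold in CD8 cells were named, and other values were chosen after they were seen. The members and lists were chosen with earlier results of these data known. Promoters are RefSeq windows of GRCm38.p6, matched for all 9 members.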

Additional observations from a re-analysis of the deposited data

Results flagged for a closer look

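The log2 ratio of Gzmc (ACD over CTRL) went opposite ways between gates: 4.36 in epidermal T cells, -2.93 in Cd163l1-positive T cells and -3.59 in NK cells. The difference between gates was not tested, and the latter values rest on single cells.

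Barcodes in no gate also held the members in ACD. Gzma was at 96.7 UMIs per 1000000 there (0.115 in CTRL), Gzmb at 33.2 (0.536), Gzmc at 88.0 (10.5), Gzmk at 0.452 (0), Prf1 at 3.62 (0.0383), Nkg7 at 57.4 (12.3), Fasl at 2.16 (0.115), Serpinb9 at 19.0 (6.17) and Serpinb6b at 22.2 (2.30). Of the 2782 Gzma UMIs, 2330 were in 93 barcodes with 1 Cd3 UMI and at least 1 NK-marker UMI, which met neither the T nor the NK gate.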

How the results depend on the processing

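No paired analysis was possible because each condition was 1 library, and for the same reason no replicate could be left out. With 1 UMI for Cd3 and Cd8, 4 members were higher in CD8 cells and the Gzma log2 ratio there was 3.32. With the mean over cells these were 1 and 0.92. With at least 20 UMIs, 5 of 5 members were higher in Tregs and 4 of 7 in epidermal T cells. The shares of all genes under these settings are not given here, so these counts are not set against a background. In an alternative chosen after seeing the data, without the cell with most UMIs of the gene in each library, the CD8 log2 ratio was 4.04 for Gzma (against the floor of 3 UMIs, since 0 CTRL UMIs were left) and 1.94 for Gzmb. The cause of these moves was not tested. Of the other counts, 59 stayed within 1.5 times. No direction of a called ratio turned where a ratio could still be formed. Without the top cells, Gzma in Tregs and epidermal T cells and Gzmc in Cd163l1-positive T cells had no ratio. They had 0 CTRL UMIs and 26, 0 and 2 ACD UMIs left. Apart from Gzma, Gzmb and Prf1 in CD8 cells, 9 recomputed log2 ratios moved beyond their interval and 297 did not. Without the top cells 6 moved and 27 did not. With 3 UMIs for Cd3, Cd8 and NK markers, 5 CTRL CD8 and 9 CTRL NK cells were left, the stricter cell filter left 9 NK cells and Scrublet 9 CD8 cells, so no count was made there. Thinning to 1000 UMIs moved 47 of 90 shares beyond their interval. Depth and the 10 CTRL cells each in the CD8 and NK gates limit what could be seen there.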
